A study of Homo sapiens with 6 samples.

Results

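Potassium channel genes were taken as every symbol of the deposited table that starts with KCN, apart from KCNQ1OT1, KCNQ1DN and hyphenated symbols. The rule gave 98 of the 35793 genes listed. It covers the pore-forming subunits of the voltage-gated, calcium-activated, inward-rectifier and tandem-pore channels and the auxiliary subunits that bear a KCN symbol, with 1 pseudogene, KCNMB3P1. RNA was measured in cardiomyocytes that had been differentiated from WTC11, an established human induced pluripotent stem cell line. One genotype was wild-type WTC11. The other was STK25KO, a line made from WTC11 with CRISPR/Cas9 and labelled a homozygous knockout of STK25, a serine/threonine kinase gene. Each genotype gave 3 biological replicates, taken on day 15 without treatment. The knockout was 1 line, so the edit and other differences between the lines cannot be told apart.

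Potassium channels let potassium ions leave or enter the cell down their gradient and so set the resting potential and end the action potential. In the heart several currents share this work. A transient outward current shapes the early notch, rapid, slow and ultra-rapid delayed rectifiers repolarise the cell, and inward rectifiers hold it at rest. Further channels open to calcium, to a fall in ATP or to acetylcholine.

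The 6 libraries held 22443904 to 53224112 reads assigned to genes. STK25 itself had 8874, 6774 and 8710.4 normalized counts in the wild-type libraries and 3906, 3434 and 3819.7 in the knockout libraries, so the targeted gene was lower in every knockout library but its RNA was still present (log2 fold change -1.12, limma adjusted p = 0.00903, and 0.0609 without wild-type replicate 1). Over all genes, 1982 of 15536 tested had an adjusted p under 0.05 (limma on log2 of the normalized count plus 1, Benjamini-Hochberg adjustment over all genes tested), which is 12.8%. Leaving out wild-type replicate 1 or 3, or knockout replicate 2 or 3, brought that count to 796, 916, 1292 and 962. Cardiomyocyte markers were abundant in both genotypes: TNNT2, cardiac troponin T, ran from 206999 to 270043 in wild-type and from 226420 to 359162 in knockout libraries, and 0 of the 10 markers listed passed with limma. At an unadjusted p under 0.05 there were 6 of them, 1 passed with edgeR and 6 with DESeq2. Their summed normalized count was 1348440 to 1686200 in wild-type and 1946200 to 3557540 in knockout libraries. MYL7 weighs most in this sum, with means of 541523 in the wild type and 1481020 in the knockout. Of the 10 markers, 7 had a log2 fold change above 0. MYH6 (means 142436 and 62131), TNNI1 (224902 and 167048) and RYR2 (2573 and 2316) were lower in the knockout. Smooth muscle markers moved with genotype: 5 of 6 rose. Their summed normalized count was 81840 to 91696 in the wild type and 494465 to 544402 in the knockout. ACTA2 weighs most in this sum, with means of 49466 in the wild type and 389103 in the knockout. Neural markers summed to 274 to 450.1 and 707 to 1078. Of 12 listed, 8 were tested, 6 of these had a log2 fold change above 0, and SOX2, PAX6 and TUBB3 passed. TUBB3 alone went from a mean of 62.3 to 449. SYT1 had means of 178 and 190, GFAP 79.2 and 46.3, and MAP2, STMN2 and DCX also had lower knockout means. The neural marker SOX1 was at or under 0.762 in every library. Which cells carried the potassium channel transcripts was not tested, and in bulk RNA fewer cells of a type and less RNA per cell cannot be told apart.

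Of the 98 potassium channel genes, 10 had no read in any library, 30 had a mean under 10 normalized counts and 58 were tested. Among the 58, 10 rose and 5 fell at an adjusted p under 0.05, against 5.97% and 6.79% of all genes tested. Without wild-type replicate 1 the higher count was 6, and without wild-type replicate 3 the lower count was 3. The filter bears on these counts, since 10 of the 58 had a mean under 10 in one genotype. Among the genes that rose were KCNIP2, KCNIP4, KCNIP3, KCNN2, KCNMA1, KCNK3, KCNK6, KCNS3 and KCNG3. Those that fell were KCNH7, KCNJ11, KCNQ5, KCNA5 and KCNH2. The 3 libraries of one genotype lay wholly above the 3 of the other in 29 of the 58, against 33.4% of all genes tested. The median log2 fold change of the 58 was 0.17, beside 0.01 for all genes tested. It was -0.10 with equal totals, a scaling that moves the median of all genes to -0.27. It was 0.39 with quantile normalization, 0.46 with edgeR and 0.47 with DESeq2, where the median of all genes was 0.021, 0.0088 and 0.024.

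The 98 genes fell into 7 families. Beside the counts that follow, 5.97% of all genes tested were higher and 6.79% lower, with a median log2 fold change of 0.01. With 3 to 17 genes tested per family, the counts describe members and were not tested as family results. Kv7 and EAG, ERG, ELK channels (KCNQ and KCNH) had 10 of 13 members tested, of which 3 fell and 1 rose, with a median log2 fold change of -1.33. Calcium- and sodium-activated channels had 5 of 8 tested, of which 2 rose and 0 fell, with a median of 2.00. Of the tandem-pore channels (KCNK) 3 of 15 were tested and 2 rose. Among auxiliary subunits and regulators 17 of 19 were tested and 3 rose, all KCNIP genes. The inward rectifiers (KCNJ) had 10 of 16 tested with 1 lower, and the Kv1 to Kv4 channels 8 of 17 with 1 lower. Their shares called, 10% and 12.5%, were near the 12.8% of all genes tested. The silent modifier subunits had 5 of 10 tested with 2 higher. Members without a test were low throughout: the highest value of any of them in any library was 31.8 (KCNK13 in knockout replicate 1).

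**Figure D1:**
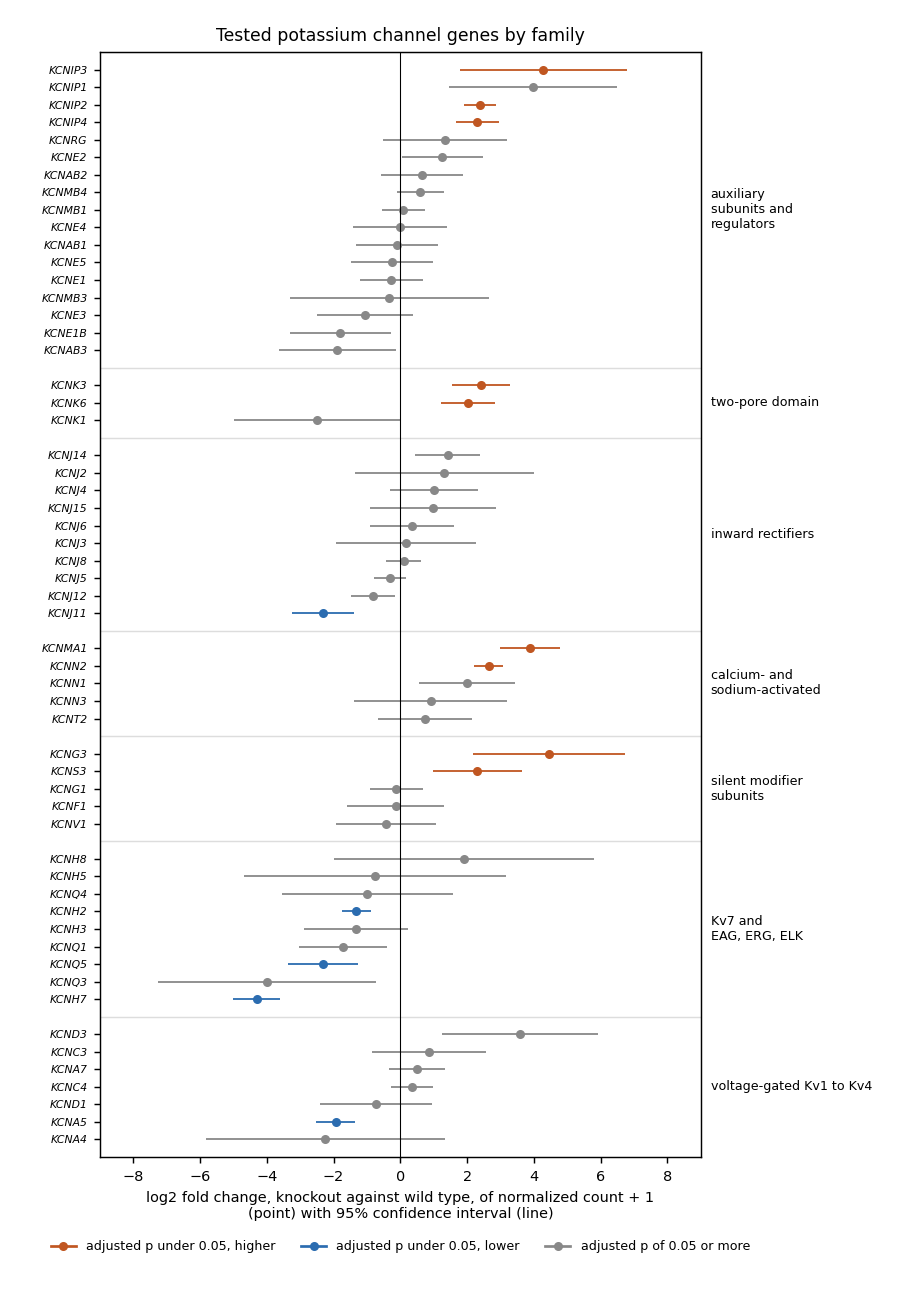
Log2 fold change of knockout against wild type on the scale of normalized count plus 1 (x axis, points) with 95% confidence intervals (lines) for 56 of the 58 tested potassium channel genes (y axis), grouped by family. Orange marks 9 genes that rose, blue the 5 that fell and grey 42 that did not pass. Of the 5 that fell, 3 are KCNQ and KCNH genes, and KCNIP2, KCNN2 and KCNH7 have short intervals far from 0.

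Promoter sequence is shown for 5 of these genes, 3 that rose and 2 that fell, to set the DNA before their starts beside their RNA. RefSeq promoters on GRCh38.p14 matched 72 of the 98 members and 12 of the 15 called genes, which had 21 start sites among them. Each stretch is taken from the 250 bases before a start, 5′ to 3′ on the gene's strand, without bases that lie in a GENCODE 29 exon of the gene. For KCNIP2 and KCNH2, which have several starts, the start farthest upstream is shown. The KCNN2 stretch lies before a RefSeq start inside the GENCODE 29 span of the gene (114055545 to 114496500), not before the start of that span. Capitals mark a match to any motif searched.
KCNIP2 (chr10:101843921-101844050, - strand): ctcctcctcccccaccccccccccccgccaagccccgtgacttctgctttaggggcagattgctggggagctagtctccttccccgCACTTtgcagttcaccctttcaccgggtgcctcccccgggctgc
KCNN2 (chr5:114361820-114361963, + strand): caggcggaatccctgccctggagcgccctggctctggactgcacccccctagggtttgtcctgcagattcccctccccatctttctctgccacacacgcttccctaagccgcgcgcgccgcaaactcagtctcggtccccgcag
KCNK6 (chr19:38319595-38319843, + strand): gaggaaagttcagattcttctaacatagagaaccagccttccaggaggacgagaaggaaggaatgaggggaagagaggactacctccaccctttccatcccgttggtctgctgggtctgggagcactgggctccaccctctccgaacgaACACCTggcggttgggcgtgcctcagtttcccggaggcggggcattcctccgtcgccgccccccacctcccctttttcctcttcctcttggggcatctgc
KCNA5 (chr12:5043629-5043878, + strand): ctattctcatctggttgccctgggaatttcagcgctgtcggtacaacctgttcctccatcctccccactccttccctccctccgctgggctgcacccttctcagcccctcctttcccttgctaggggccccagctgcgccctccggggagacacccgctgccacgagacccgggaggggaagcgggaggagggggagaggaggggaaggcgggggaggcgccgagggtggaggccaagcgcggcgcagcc
KCNH2 (chr7:150978322-150978571, - strand): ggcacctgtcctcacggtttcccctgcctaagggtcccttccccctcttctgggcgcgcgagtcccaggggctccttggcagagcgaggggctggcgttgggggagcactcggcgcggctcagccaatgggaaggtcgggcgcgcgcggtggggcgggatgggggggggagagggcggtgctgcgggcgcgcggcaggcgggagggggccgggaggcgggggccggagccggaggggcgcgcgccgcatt
The motifs were searched on both strands of the 250 bases: the TATA box TATAAA, the cyclic AMP response element TGACGTCA and its part TGACG, the E-box CACGTG, the GATA site AGATAA, the NK homeobox site AAGTG, the T-box site AGGTGT and a spaced palindromic pattern, ACANNTGT. In the shown stretches KCNIP2 held AAGTG and KCNK6 held AGGTGT, each on the reverse strand, and the KCNN2, KCNA5 and KCNH2 stretches held none of them. Over the 21 promoters of the 12 genes, AAGTG was in 4 (of KCNH2, KCNIP2 and KCNQ5) and TGACG in 3 (of KCNG3, KCNH2 and KCNQ5), motifs held by 37.6% and 21.2% of all 35116 promoters. In KCNQ5 these matches overlapped. The TATA box, the GATA site and the T-box site were each in 1 of the 21 (of KCNH2, KCNMA1 and KCNK6 in turn), against 10.7%, 9.17% and 9.57% of all promoters. The full cyclic AMP response element, the E-box and the spaced pattern were in 0 of the 21, against 1.65%, 6.34% and 4.71%. No motif of the set lay before more than 3 of the 12 genes. These are matches of letters in the windows, and gene totals do not show which start was used.

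KCNIP2, an auxiliary subunit gene of the transient outward current, had the highest mean normalized count of the 98 genes in the knockout, while KCNH2 had the highest in the wild type. KCNIP2 (ENSG00000120049, chromosome 10, 101825974 to 101843920) encodes a calcium-binding protein that joins Kv4 channels and brings them to the cell surface. Its normalized counts were 2586, 2320.1 and 2674 in the wild type and 10473, 14291 and 15212 in the knockout. All knockout libraries lay far above all wild-type libraries, and the means were 2527 ± 184 and 13325 ± 2513 (SD, n = 3 each), 5.27-fold higher. This is a change of 2.38 on the log2 scale (SE 0.20, limma adjusted p = 0.000555). Its exons share 413 bases with KCNIP2-AS1 on the opposite strand in GENCODE 29, and whether the counting used strand is not given in the sources used here. The exons of KCNIP4, KCNN2, KCNMA1 and KCNQ5 also share 77 to 419 bases each with genes on the opposite strand.

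The Kv4 pore genes that KCNIP2 serves were present at much lower read numbers. KCND3 had 18.1, 20.6 and 1.3 normalized counts in the wild type and 299, 97.0 and 54.2 in the knockout. Every knockout library was above every wild-type library, but the spread within the knockout was wide and the test was missed (log2 fold change 3.58, SE 1.01, limma adjusted p = 0.0564). With DESeq2 on the recovered reads it was past the threshold (adjusted p = 0.00177). KCND2, the other main Kv4 pore gene of the heart, had no read in 5 libraries and 1.91 normalized counts in wild-type replicate 3. KCND1, also a Kv4 pore gene, had means of 54.1 in the wild type and 39.6 in the knockout. Its genotypes overlapped (log2 fold change -0.74, SE 0.72, limma adjusted p = 0.570). KCNA4, which carries a slower transient outward current, had 81.6, 41.1 and 133 in the wild type and 0, 55.7 and 74.7 in the knockout, and the genotypes overlapped (limma adjusted p = 0.399).

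Its relatives KCNIP4 and KCNIP3 rose too. KCNIP4 (chromosome 4, 20728616 to 21948799), an auxiliary Kv4 subunit best known from neurons, went from 140.5, 206 and 121 to 667, 799 and 813 normalized counts. The genotypes did not overlap, with a change of 2.31 on the log2 scale (SE 0.28, limma adjusted p = 0.00236). KCNIP3 (chromosome 2, 95297304 to 95386083), also known as a calcium-binding transcriptional repressor, went from 0, 0.762 and 12.1 to 81.4, 82.5 and 24.0 (log2 fold change 4.29, SE 1.08, limma adjusted p = 0.0390). Dropping single libraries lost that call in 5 of 6 cases, at an adjusted p of up to 0.121, as did edgeR (adjusted p = 0.0862). KCNIP1 had no read in any wild-type library and 48.3, 4.46 and 13.3 normalized counts in the knockout, with a limma adjusted p of 0.0523. It was past the threshold with edgeR and with DESeq2. So all KCNIP genes had higher knockout means, with KCNIP2 holding most of the reads. KCNIP1 and KCNIP3 had wild-type means below the filter and were tested only because of their knockout counts (means 22.0 and 62.6). With so few wild-type reads, a fall in KCNIP1 or KCNIP3 could hardly have been seen. Their direction thus adds little to that of KCNIP2 and KCNIP4.

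**Figure D2:**
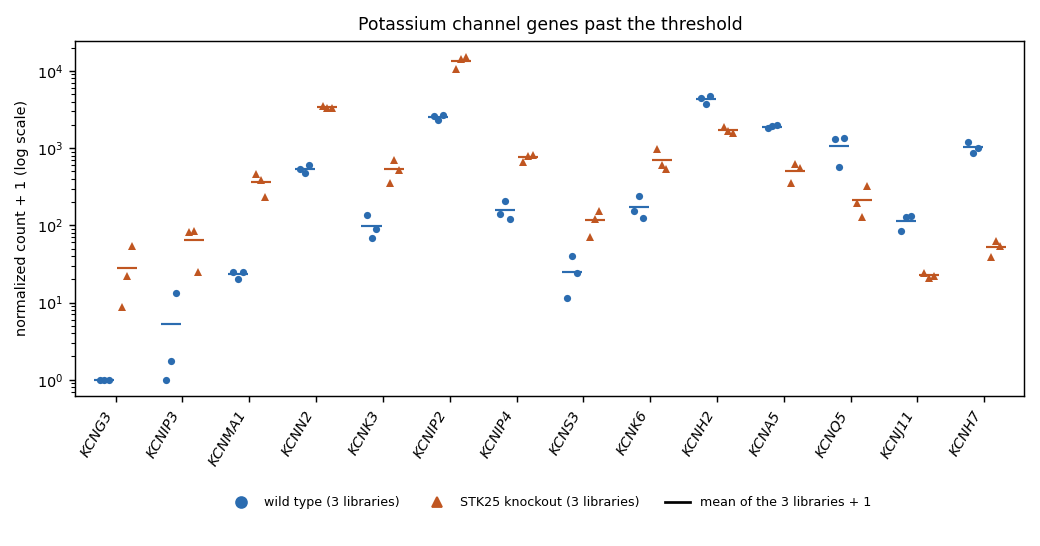
Normalized count plus 1 on a log axis (y) for 14 of the 15 potassium channel genes past the threshold (x), ordered by log2 fold change, with each of the 3 wild-type libraries (circles), each of the 3 knockout libraries (triangles) and the mean of each genotype plus 1 (lines). The genotypes do not overlap in any of these genes, which were chosen by the test on these same values. They run from KCNG3, with no wild-type read, to KCNH7, which fell from a mean of 1019 to 51.0.

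The pore gene of the ultra-rapid delayed rectifier fell. KCNA5 (chromosome 12, 5043989 to 5046788) is best known from atrial muscle. Wild-type libraries had 1809.5, 1922 and 1972 normalized counts, a narrow range, and knockout libraries had 355, 621 and 556. The means of 1901 ± 83.3 and 511 ± 139 (SD, n = 3 each) differed 3.72-fold, a log2 fold change of -1.93 (SE 0.25, limma adjusted p = 0.00307).

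Other pore genes of the family did not pass. KCNA7, found mainly in heart and skeletal muscle, had 68.0, 54.1 and 77.2 in the wild type and 82.6, 117 and 82.7 in the knockout (limma adjusted p = 0.435).

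Silent modifier subunits do not form channels alone but alter Kv2 channels. KCNS3 (chromosome 2, 17877847 to 18361616) had 10.6, 38.8 and 23.0 normalized counts in the wild type and 69.9, 120.4 and 154 in the knockout (log2 fold change 2.30, SE 0.58, limma adjusted p = 0.0387). KCNG3 (chromosome 2, 42442017 to 42494097) had no read in any wild-type library and 7.63, 21.2 and 53.3 in the knockout (limma adjusted p = 0.0246), at least 9.41-fold higher when each wild-type library is set to 3 reads. Both were low genes whose calls were lost in 4 of 6 cases when a single library was dropped, at adjusted p of up to 0.144 for KCNS3 and 0.134 for KCNG3. Each was lost without wild-type replicate 1, wild-type replicate 3, knockout replicate 2 or knockout replicate 3. The other 3 tested silent subunits overlapped between genotypes and did not pass.

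The rapid delayed rectifier gene KCNH2 fell. KCNH2 (ENSG00000055118, chromosome 7, 150944961 to 150978315) encodes the ERG channel, the target of many drugs that prolong the QT interval. It had 4503, 3690.3 and 4739 normalized counts in the wild type and 1888, 1686 and 1573 in the knockout. No library overlapped, and the knockout mean was 39.8% of the wild-type mean (4311 ± 550.0 and 1716 ± 159, SD, n = 3 each). This is a change of -1.32 on the log2 scale (SE 0.19, limma adjusted p = 0.00425).

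Genes around KCNH2 were lower too. Within 5 Mb of it, 49 of 54 other tested genes (90.7%) had a log2 fold change below 0, with a median of -1.16, and 25 of them were called lower and 0 higher. The median for all genes tested was 0.01. The value of KCNH2 was thus close to the median of its neighbours, and whether the neighbourhood and the gene share a cause was not tested. Around the other 14 called members the neighbours' medians ran from -0.31 (KCNA5) to 0.19 (KCNMA1). DPP6, a partner of Kv4 channels that lies in the same part of chromosome 7 (153887097 to 154894285), had at most 9.14 normalized counts in any library and was not tested.

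**Figure D3:**
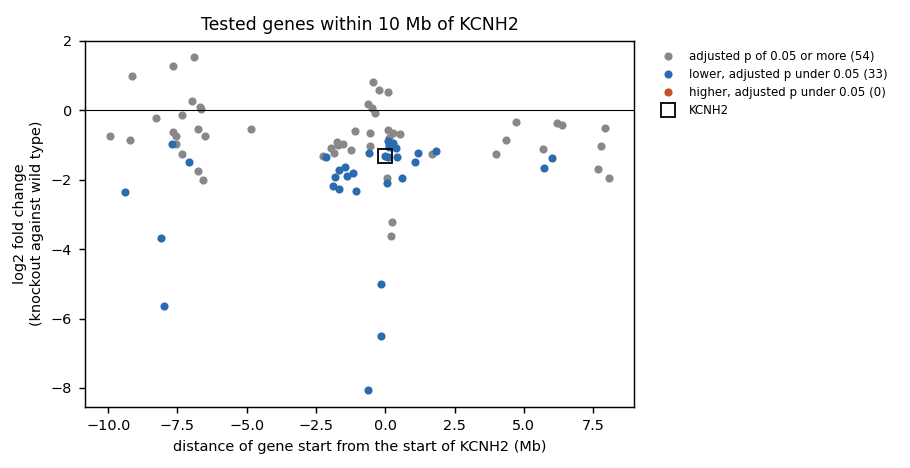
Log2 fold change of knockout against wild type (y axis) for tested genes against the distance of their lowest coordinate from that of KCNH2 in Mb (x axis), out to 10 Mb on each side; the square marks KCNH2, blue points are called lower and grey points are not called. Of the genes shown, 33 were called lower and 0 higher, and KCNH2 at -1.32 lies within the band of its neighbours.

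The ERG relative KCNH7 (chromosome 2, 162371407 to 162838730), best known from the nervous system, showed the largest fall among called members. It had 1190.2, 852 and 1014 normalized counts in the wild type and 38.1, 62.4 and 52.4 in the knockout. The drop from 1019 ± 169 to 51.0 ± 12.2 (SD, n = 3 each) was 20.0-fold, a log2 fold change of -4.31 (SE 0.30, limma adjusted p = 0.000249). Its exons share 189 bases with GCA on the opposite strand in GENCODE 29. The other tested EAG and ELK genes, KCNH3, KCNH5 and KCNH8, had means of 1.70 to 26.9 and did not pass.

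The slow delayed rectifier genes were less clear. KCNQ1 (chromosome 11, 2444684 to 2849110), its pore gene, had 316, 295 and 359.8 normalized counts in the wild type and 36.9, 182 and 137 in the knockout. Its libraries did not overlap, but knockout replicate 1 was far below the other 2 and the test was missed (log2 fold change -1.72, SE 0.57, limma adjusted p = 0.0920). DESeq2 put it past the threshold (adjusted p = 0.0384). Its exons share 121 bases with KCNQ1OT1 on the opposite strand.

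KCNE1, the auxiliary subunit of KCNQ1, had 219, 197 and 246 in the wild type and 99.1, 269.7 and 221 in the knockout (log2 fold change -0.28, SE 0.41, 95% confidence interval -1.22 to 0.67, limma adjusted p = 0.725). Its near-identical copy KCNE1B had 163, 219 and 164 against 16.5, 81.4 and 97.8 (limma adjusted p = 0.119), and reads could be split between them. Their sums were 382, 416 and 410.2 in the wild type and 116, 351 and 319 in the knockout, so the sum was lower in every knockout library and lowest in replicate 1. KCNE2, KCNE3, KCNE4 and KCNE5 had means from 15.7 to 54.3 in either genotype and did not pass, with limma adjusted p-values of 0.164, 0.320, 0.997 and 0.822.

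KCNQ5, a Kv7 gene of the neuronal M-current, fell. It lies on chromosome 6 (72621792 to 73198851) and had 1309.5, 573 and 1350.4 in the wild type and 194, 128 and 322 in the knockout (log2 fold change -2.32, SE 0.45, limma adjusted p = 0.0150). KCNQ5 was over the threshold without wild-type replicate 1 (adjusted p = 0.0771) or replicate 3 (adjusted p = 0.0666). KCNQ3, which pairs with it in neurons, had 66.5, 22.1 and 89.3 against 0, 0 and 32.9 and did not pass (limma adjusted p = 0.110).

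The calcium-activated channel genes KCNN2 and KCNMA1 rose. KCNN2 (chromosome 5, 114055545 to 114496500) encodes a small-conductance channel that in the heart is known from atrial and pacemaker cells. Its normalized counts were 535, 482 and 607 in the wild type and 3503, 3304 and 3330.0 in the knockout, tight within each genotype. The means of 541 ± 62.5 and 3379 ± 108 (SD, n = 3 each) differed 6.24-fold, a log2 fold change of 2.65 (SE 0.19, limma adjusted p = 0.000251). Of its relatives, KCNN1 had 7.62 to 16.6 in the wild type and 30.1 to 94.2 in the knockout, without overlap (limma adjusted p = 0.0774, DESeq2 adjusted p = 0.0136), and KCNN3 overlapped (limma adjusted p = 0.615).

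KCNMA1 (chromosome 10, 76869601 to 77638369) encodes the large-conductance BK channel, abundant in smooth muscle and neurons. It had 24.2, 19.0 and 23.6 normalized counts in the wild type and 461, 386 and 228 in the knockout. The knockout mean was 16.1-fold higher, a log2 fold change of 3.90 (SE 0.39, limma adjusted p = 0.00106). The smooth muscle markers given above were higher in the same libraries, among them MYH11 at 152 to 314 and 7561 to 9796, and their part in this result was not tested.

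The abundant BK auxiliary subunits did not pass the test. KCNMB1, the subunit of smooth muscle BK channels, had 300.6, 258 and 300.4 in the wild type and 400.4, 249 and 279.9 in the knockout (log2 fold change 0.09, SE 0.28, 95% confidence interval -0.56 to 0.73, limma adjusted p = 0.886). KCNMB4, the neuronal BK subunit, had 980.3, 1306 and 853 against 2293, 1166 and 1420.2 (log2 fold change 0.60, SE 0.30, limma adjusted p = 0.246), with wild-type replicate 2 above knockout replicate 2. The difference between KCNMA1 and these subunits was itself not tested.

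ATP-sensitive channels pair an inward-rectifier pore with a sulfonylurea receptor. KCNJ11 (chromosome 11, 17385859 to 17389331), the pore of the ventricular and pancreatic form, had 83.1, 126 and 131 normalized counts in the wild type and 22.9, 20.1 and 21.3 in the knockout. It fell 5.30-fold (log2 fold change -2.33, SE 0.40, limma adjusted p = 0.00996), although without wild-type replicate 3 the adjusted p was 0.0589. KCNJ8, the pore of the vascular form, was far more abundant and had 1755, 1739.7 and 1921 against 1466, 2061 and 2380.0 (log2 fold change 0.10, SE 0.23, 95% confidence interval -0.42 to 0.62, limma adjusted p = 0.835).

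The sulfonylurea receptor genes did not pass the test. ABCC9, which serves cardiac and vascular channels, had 218, 277 and 152 in the wild type and 208, 229.6 and 249.7 in the knockout (limma adjusted p = 0.844). ABCC8, the receptor of pancreatic and neuronal channels, was low, at 0 to 4.57 and 12.4 to 43.2 (limma adjusted p = 0.0863). Its gene lies next to KCNJ11, and the fitted values of the neighbours had opposite signs (2.95 for ABCC8).

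The strong inward rectifiers that hold the resting potential were low or not called. KCNJ2, the main pore of that current in adult ventricle, had only 3.02, 9.90 and 5.74 normalized counts in the wild type and 71.2, 2.23 and 18.7 in the knockout. Knockout replicate 1 stood apart, and the genotypes overlapped (log2 fold change 1.32, SE 1.16, limma adjusted p = 0.522). KCNJ12 had 246, 252 and 277 against 131, 188 and 128, lower in every knockout library (log2 fold change -0.81, SE 0.29, limma adjusted p = 0.110, DESeq2 adjusted p = 0.0407). Reads of KCNJ12 could be shared with its near-identical copy KCNJ18, which held at most 1.52 normalized counts. KCNJ4 overlapped between genotypes (limma adjusted p = 0.304).

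The acetylcholine-activated current is carried by KCNJ3 with KCNJ5, opened by G protein subunits when muscarinic receptors are bound. KCNJ5 had 995, 938 and 1304 in the wild type and 857, 892 and 842 in the knockout, without overlap but with a small difference (log2 fold change -0.31, SE 0.21, 95% confidence interval -0.79 to 0.18, limma adjusted p = 0.397). KCNJ3 had 55.9, 60.2 and 22.3 against 179, 13.4 and 43.5, overlapping widely (limma adjusted p = 0.933). CHRM2, the cardiac muscarinic receptor, did not pass (log2 fold change 0.25, SE 0.21, limma adjusted p = 0.498).

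Of 12 receptors, G proteins and regulators upstream of KCNJ3 and KCNJ5, 4 rose and 0 fell, beside 5.97% and 6.79% of all genes tested, with a median log2 fold change of 0.28. RGS4, which shortens G protein signals, went from 175, 231 and 190.1 to 1325, 1218 and 1006 (log2 fold change 2.57, SE 0.24, limma adjusted p = 0.000726). RGS6, known as the brake on this current in pacemaker tissue, rose from a mean of 15.5 to 89.2 (limma adjusted p = 0.0164). GNAO1 and GNG2, G protein subunits, rose by 1.84 and 2.52 on the log2 scale (limma adjusted p = 0.0292 and 0.0143). So regulators of the current passed the test while its pore genes did not, a contrast that was itself not tested.

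Tandem-pore channels carry background current. KCNK3 (chromosome 2, 26692690 to 26733420), an acid-sensitive channel known from atrial muscle, had 134, 68.6 and 89.9 normalized counts in the wild type and 355, 703 and 527 in the knockout. Its knockout mean was 5.41-fold higher (log2 fold change 2.42, SE 0.38, limma adjusted p = 0.00634). KCNK6 (chromosome 19, 38319844 to 38332076) had 154, 238 and 124 against 975, 599 and 537, 4.08-fold higher (log2 fold change 2.03, SE 0.35, limma adjusted p = 0.010). Without wild-type replicate 1 its adjusted p was 0.0519. KCNK1 was lower without overlap but did not pass (limma adjusted p = 0.180), and KCNK2, a stretch-activated channel of the heart, had at most 1.52 normalized counts in any library. The other members of the family were at or under 31.8.

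Levels were also set side by side per length, as normalized counts per kb of merged exons in GENCODE 29. KCNIP2 ranked 1 of the 98 in both genotypes. Its share of the summed per-length level was 17.3%, 16.3% and 17.1% in the wild type and 48.1%, 56.5% and 56.7% in the knockout. KCNH2 held 15.0% to 17.6% in the wild type and 3.39% to 5.01% in the knockout, and KCNA5 held 14.7% to 16.4% and 1.98% to 2.98%. KCNJ8 held 16.1% to 16.9% and 9.20% to 12.1%, although its own level did not pass the test, while the summed normalized count of all 98 genes was 17166 to 19682 in the wild type and 27297 to 30693 in the knockout. These 4 genes thus had similar per-length shares in the wild type and KCNIP2 alone led in the knockout.

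**Figure D4:**
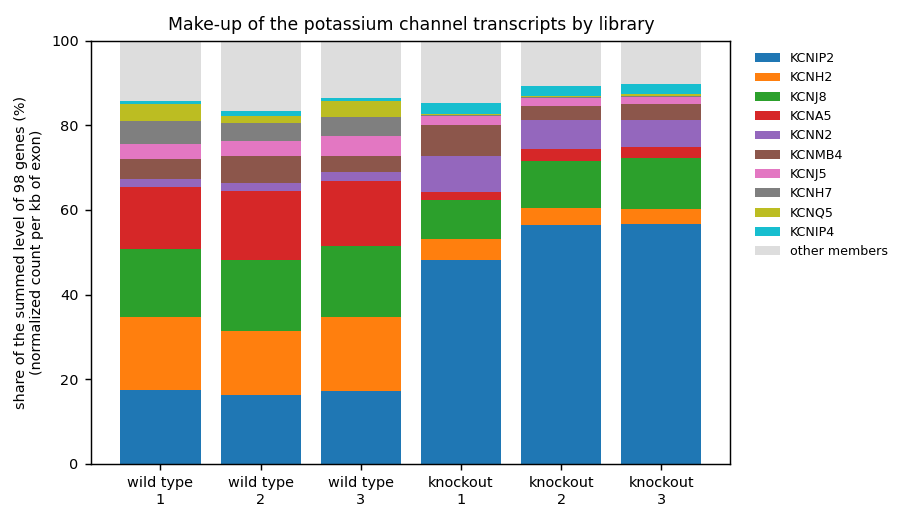
Share in % (y axis) of the summed per-length level of the 98 genes held by 10 of the most abundant, and by all others together (grey), in each of the 6 libraries (x axis). KCNIP2 fills 16.3% to 17.3% of the wild-type bars and 48.1% to 56.7% of the knockout bars, while KCNH2, KCNA5, KCNH7 and KCNQ5 shrink.

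By current, 27 genes known to carry or tune repolarising currents in the heart were listed. Of these 25 were tested, 4 rose (KCNIP2, KCNN2, KCNMA1 and KCNK3), 3 fell (KCNA5, KCNH2 and KCNJ11) and 18 did not pass. The 7 that passed are 28.0% of those tested, beside 12.8% of all genes tested, and the list was chosen with earlier results known. There were 12 at an unadjusted p under 0.05, 7 passed with edgeR and 11 with DESeq2. Their median log2 fold change was 0.17. The genes that did not pass included abundant ones with narrow intervals, KCNJ8 and KCNJ5, and low ones such as KCNN3 and KCNE4 whose intervals were wide (-1.38 to 3.21 and -1.42 to 1.41).

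**Figure D5:**
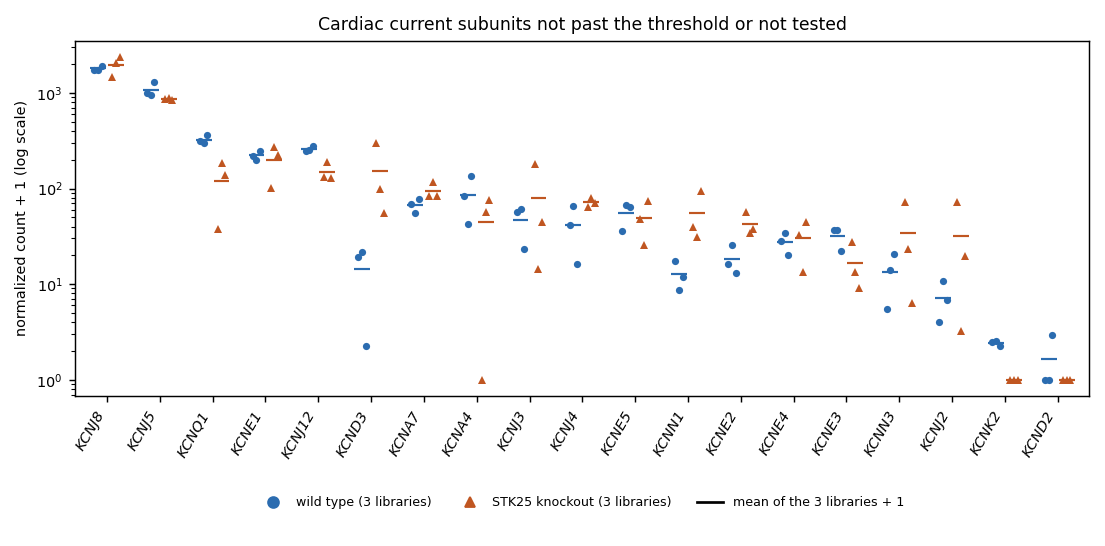
Normalized count plus 1 on a log axis (y) for 19 of the 20 listed cardiac current genes that did not pass or were not tested (x), ordered by mean level, with each wild-type library (circles), each knockout library (triangles) and the mean of each genotype plus 1 (lines). KCNQ1, KCNJ12, KCNJ5, KCND3, KCNN1, KCNE2 and KCNA7 are separated by genotype without passing the test, and single knockout libraries lie far out in KCNJ3, KCNJ2 and KCNA4.

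The 14 listed partners without a KCN symbol were sulfonylurea receptors, DPP and LRRC partners, AMIGO1, AKAP9, calmodulins and NEDD4L. Of these, 11 were tested and 0 passed with limma, beside 12.8% of all genes tested. There were 4 at an unadjusted p under 0.05, 0 passed with edgeR and 2 with DESeq2. With 11 genes, 0 passing does not show that the partners were unchanged. ATP1B2, a beta subunit of the sodium-potassium pump, which builds the gradient the channels use, fell from a mean of 1608 to 377 (log2 fold change -2.09, SE 0.23, limma adjusted p = 0.00164).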

How the data were processed

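RNA from 6 cultures was made into libraries with an ultra-low-input kit, per the labels' protocols. The authors deposited 1 table of signal values per gene, gene counts divided by a factor per library, and the submitters' processing notes name bcl2fastq 2.19, kallisto 0.44.0 and DESeq2 1.28.1 and GRCh38 without giving their roles. Per library, 100% of values were whole multiples of 1 smallest step (tolerance 0.01). These multiples are called reads here, and they may be rounded estimates rather than direct counts. Genes with similar sequence may share reads.

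Genes with a mean of at least 10 normalized counts were tested with limma 3.58.1 (R 4.3.3; log2 of the normalized count plus 1, eBayes with trend, Benjamini-Hochberg adjustment, threshold 0.05). Fold changes of low genes depend on the pseudocount and on single libraries near 0: KCNIP3 was 4.29 on the log2 scale with limma, 3.68 with edgeR and 3.79 with DESeq2, and KCNA4 was -2.25, -0.97 and -0.97. edgeR 4.0.16 and DESeq2 1.42.0 on the recovered reads called 1864 and 3210 genes. The code was tested on simulated data. Positions come from GENCODE 29. Replicate numbers were not treated as pairs in the main fit. The correlations of deviations given below rest on 3 samples per genotype and cannot decide whether same-numbered samples shared a batch.

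The text names the potassium channel genes past the threshold, a list of 27 cardiac current genes, the 10 most abundant members, and called genes of the other lists with DPP6, ABCC8 and ABCC9. KCND1, KCNE1B, KCNIP1, KCNJ18, KCNK1, KCNK13, KCNMB1, KCNQ3, KCNH3, KCNH5, KCNH8 and CHRM2 were added after their values were seen. So were the cell markers MYL7, MYH6, TNNI1, RYR2, SYT1, GFAP, MAP2, STMN2 and DCX. Some genes that this rule names are not reported here, though counts over all members include them. The members and lists were chosen with earlier results of these data known. Beside the marker counts that follow, 5.97% of all genes tested were higher and 6.79% lower. Fibroblast markers had 3 of 8 higher and 1 lower, endothelial 0 of 4 tested (0 at an unadjusted p under 0.05 and 0 with edgeR or DESeq2), epicardial 1 of 4 higher, pluripotency 1 of 5 higher, endoderm 1 of 3 lower and epithelial 2 higher and 2 lower of 6.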

Additional observations from a re-analysis of the deposited data

How the results depend on the processing

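The fit was repeated under 18 alternatives: pseudocounts of 0.1 and 10, a filter at a mean of 50 or none, 3 other scalings, a replicate block, 2 other variance settings, edgeR, DESeq2, and leaving out each of the 6 libraries. Of 14 called potassium channel genes reported by name, 8 stayed past the threshold in every alternative run for them (KCNA5, KCNH2, KCNH7, KCNIP2, KCNIP4, KCNK3, KCNMA1 and KCNN2), 6 were lost in at least 1, and 0 changed sign. The count of called members ran from 10 without wild-type replicate 1 to 21 with DESeq2. With 1 library left out, 6 to 9 were higher and 3 to 6 lower, and calls over all genes ran from 796 to 2181.

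The same-numbered samples' deviations correlated at -0.23, -0.40 and 0.17, and not every sample correlated best with its own number. With the replicate block, 12 members and 798 of all genes were called, KCNG3, KCNIP3, KCNJ11 and KCNS3 were lost and KCND3 was gained, and STK25 kept a log2 fold change of -1.12 with a limma adjusted p of 0.0684. Leaving out 1 library gave STK25 values of -1.24 to -1.05.

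Of the 18 genes that the naming rule gave and that did not pass, 5 changed sign in some alternative; genes named beyond that rule were not counted here. With equal totals the log2 fold changes became -0.11 for KCNJ3 and -0.18 for KCNJ8. KCNE4, at -0.01, became 0.026 with a pseudocount of 10, 0.018 with equal upper quartiles, 0.15 with quantile normalization, 0.12 with edgeR and 0.14 with DESeq2. With 1 library left out, KCNE4 ran from -0.37 to 0.50, KCNE5 from -0.60 to 0.16, KCNJ3 from -0.77 to 1.05 and KCNJ8 from -0.053 to 0.30. KCNE1 ran from -0.56 to 0.15. The cause of these changes was not tested. With 3 samples per genotype, genes with few reads such as KCNG3 and KCNIP3 have wide intervals.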
